A study of Homo sapiens with 8 samples.

Results

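The ZNF genes are human genes named for zinc fingers, short protein folds held together by a zinc ion, most of which bind DNA. The set described here holds every gene of the expression table named ZNF followed by digits, with at most 1 further letter, that reached 1 RPKM (a read density corrected for gene length and library size) in at least 4 of 8 libraries. ZNF750, a regulator of epidermal differentiation, was left out. Of 25369 listed genes, 526 had a ZNF name, and 293 of these passed and are called members below. The other 233 did not reach the level, and 28 of those had no read in any library. Members lay on 21 chromosomes, with 123 on chromosome 19 (of 252 ZNF genes listed there) and 170 elsewhere (of 274).

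Most ZNF proteins belong to the C2H2 class, in which a row of fingers reads a DNA sequence. Many carry a KRAB domain, which recruits the corepressor TRIM28 and, through it, enzymes that build heterochromatin marked by methylated histone H3 lysine 9. KRAB zinc finger genes arose by repeated duplication, sit in clusters on chromosome 19, and are best known for silencing retrotransposons. A minority of ZNF genes do other work, such as translation control, ribosome assembly or cell adhesion, and have few fingers or none.

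RNA was sequenced from EPC2-hTERT cells, a telomerase-immortalized line of human esophageal epithelial cells labelled as wild type. The cells stratified on membranes in medium with 1.8 mM calcium chloride and were exposed to air for 4 days. One group of 4 cultures received 1 mM dimethyloxalylglycine (DMOG), an inhibitor of prolyl hydroxylases that stabilizes hypoxia-inducible factor (HIF), for 18 h, and the other group of 4 received DMSO vehicle. Whether the replicates of a group were grown separately is not stated, so p-values speak only of the spread between these libraries, part of which may be technical.

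The libraries held 31245695 to 39931833 reads, and a member in 1 library rested on 20 to 40612 reads (median 338). Of the members, 247 had 100 reads or more in every library. The keratinocyte markers KRT5 (3922 to 8148 RPKM), KRT14, TP63, KRT13, KRT4, IVL and DSG3 were present in every library. The fibroblast marker DCN and the endothelial marker CDH5 had no read, and COL1A2, PDGFRB, PTPRC, CD3E and PECAM1 stayed at or below 0.0380 RPKM. COL1A1 (8.70 to 32.0 RPKM) and CD68 (42.7 to 93.1 RPKM) were detected. In such bulk RNA, fewer cells of a type and less RNA per cell cannot be told apart. The group means in the authors' deposited table rest on replicates 1, 3 and 4 of each group, and DMOG replicate 2 was closer to a vehicle library (vehicle replicate 1) than to any DMOG library. Results are therefore given for those 6 libraries and for all 8. Levels are RPKM as deposited. Fold changes are DMOG minus vehicle on the scale log2(scaled RPKM + 1), where scaling sets the median gene to no change, and adjusted p comes from limma across 11122 genes.

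Members were mostly low in level. The median member averaged 2.77 RPKM over the 8 libraries (2.37 on chromosome 19 and 3.19 elsewhere), against 8.61 RPKM for the median gene tested. Of the members, 235 reached 1 RPKM in all 8 libraries and 58 in 4 to 7, and none passed through libraries of 1 treatment alone. Just inside the limit, the fourth highest library stood at 1.00 RPKM for ZNF691, 1.01 for ZNF155 and 1.03 for ZNF559. Just outside it stood ZNF615 (0.994 RPKM), ZNF182 (0.997) and ZNF708 (0.997). The limit cannot admit a gene that reached 1 RPKM only in DMOG replicates 1, 3 and 4, which holds for 4 ZNF genes.

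In the 6 libraries, after scaling to the median gene, ZNF members moved upward with DMOG more often than downward, which was not so for genes in general. Of 293 members, 42 rose and 9 fell at an adjusted p under 0.05, and 242 were not called. The share of members called higher was near that of all genes tested, 14.3% against 13.7%, and the share called lower was 3.07%, against 16.1%. The median log2 fold change was 0.15 over members and -0.00 over all genes tested, and 205 members lay above 0. After scaling, all 3 DMOG libraries stood above all 3 vehicle libraries for 100 members, against 24.5% of genes tested, and below them for 31 members, against 26.8%. Among called members the log2 fold change ran between 0.38 and 1.63 for those higher and between -0.97 and -0.34 for those lower. On this scale, where the added 1 shrinks ratios at low RPKM, 3 members passed 1. With 0.1 added in place of 1, ZNF841, ZNF836 and ZNF264 also passed it (1.03, 1.04 and 1.01), and ZNF598 stood at -1.01.

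These counts depended on the scaling. With RPKM as deposited, which puts the median gene at -0.26, 12 members were called higher (6.13% of genes tested) and 36 lower (34.5% of genes tested), and the median member stood at -0.07. All 42 members called higher kept a positive change under that scaling and 12 kept the call. All 9 called lower kept it. The counts also depended on single libraries. Leaving out vehicle replicate 1 left 2 members higher and 1 lower, and leaving out vehicle replicate 4 left 4 and 2. The fit lacking DMOG replicate 1 called 6 and 3, that lacking vehicle replicate 3 called 21 and 5, and that lacking DMOG replicate 3 called 68 and 20. The share of all genes called in fits that leave out a library is not given here. These counts therefore do not set members apart from genes in general. With the replicate number as a block, 61 members were higher (19.6% of genes tested) and 14 lower (21.0%). ZNF426, ZNF431 and ZNF598 were the members called in every one of these leave-one-out fits.

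**Figure D1:**
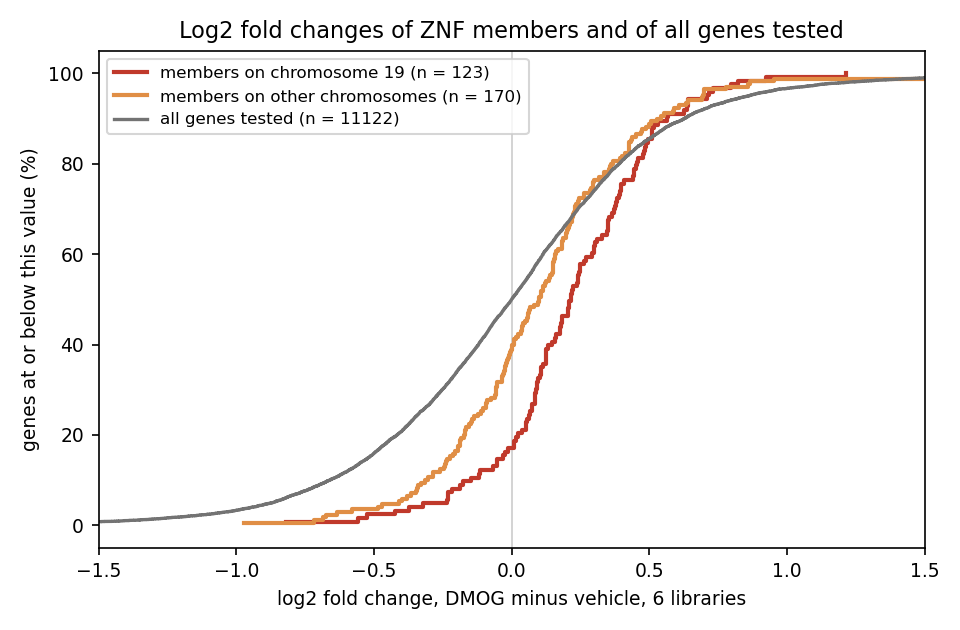
Cumulative share of genes (y axis, percent) at or below each log2 fold change (x axis, DMOG minus vehicle, 6 libraries) for members on chromosome 19, members on other chromosomes and all 11122 genes tested. The chromosome 19 curve lies to the right, with its median at 0.22, beside 0.10 for other members and -0.00 for all genes.

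DMOG replicate 2, which did not enter that comparison, did not show the change. Set against vehicle replicate 2, it was higher for 15 of the 42 members called higher (35.7%), with a median log2 difference of -0.03. The share was 48.7% of all 1526 genes called higher (median -0.01) and 47.7% of all genes tested. In this pair, genes called higher in general thus did not show the change either. Set against the mean of vehicle replicates 1, 3 and 4, DMOG replicate 2 lay 0.106 higher at the median for genes called higher. For members called higher that median was -0.002. DMOG replicate 2 stood above all 4 vehicle libraries for 383 of 1526 genes and 3 of 42 members, against 1403 of 11122 tested. These vehicle libraries also made the calls, and the difference between genes and members was not tested. For 3 of the 9 members called lower DMOG replicate 2 was also higher than vehicle replicate 2, with a median difference of -0.07. Of all genes called lower, 44.4% were higher in DMOG replicate 2 (median -0.04). With all 8 libraries, limma called no member in either direction, and the lowest adjusted p of a member was 0.118. At an unadjusted p under 0.05, 41 members were higher and 11 lower, against 14.0% and 16.3% of genes tested. A limma-voom fit of the reads also called none. The median log2 fold change over 8 libraries was 0.11 for members, and all 4 DMOG libraries stood above all 4 vehicle libraries for 14 members (5.07% of genes tested) and below for 2 (7.27% of genes tested). Without DMOG replicate 2, the same fit called 52 members higher and 16 lower, counts likewise not set against genes in general.

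Of the 42 members called higher, 23 were on chromosome 19. In the 6 libraries, these made up 18.7% of the 123 members there, and 2 fell (1.63%), with a median log2 fold change of 0.22. Of the 170 other members, 19 rose (11.2%) and 7 fell (4.12%), with a median of 0.10. With the replicate block, 29 chromosome 19 members were higher (23.6%) and 4 lower, beside 32 (18.8%) and 10 of the others, so the shares called higher lay closer together. The 679 other genes tested on chromosome 19 had a median of 0.09, with 17.2% called higher and 13.1% lower, so the share of chromosome 19 members called higher was close to that of their neighbours and the share called lower was not. The difference between the members' medians on chromosome 19 and elsewhere (0.12) was computed from genes, which are not replicates, and has no test. With RPKM as deposited, 5 chromosome 19 members were called higher and 9 lower, with a median of 0.01, beside 7 and 27 of the other members, with a median of -0.13. Without vehicle replicate 1, 2 chromosome 19 members were called higher and none lower, beside 0 and 1 elsewhere.

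Seen library by library, the mean log2 level of chromosome 19 members was always below that of all genes tested. It lay 1.32, 1.44 and 1.31 lower in DMOG replicates 1, 3 and 4 and 1.59 lower in DMOG replicate 2, against 1.57, 1.59, 1.58 and 1.59 lower in vehicle replicates 1 to 4. DMOG replicates 1, 3 and 4 thus stood above every vehicle library, and DMOG replicate 2 lay level with the vehicle group. With RPKM as deposited, the gaps were -1.30, -1.42 and -1.28 in DMOG replicates 1, 3 and 4 and -1.60 in DMOG replicate 2. In vehicle libraries they lay between -1.62 and -1.59. The factor of a library largely cancels from such a gap, so the likeness of the 2 scalings is no check on the scaling. For members on other chromosomes the gap was -1.08, -1.16 and -1.06 in DMOG replicates 1, 3 and 4 and -1.21 in DMOG replicate 2, against -1.25 to -1.18 in vehicle libraries, a smaller separation.

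**Figure D2:**
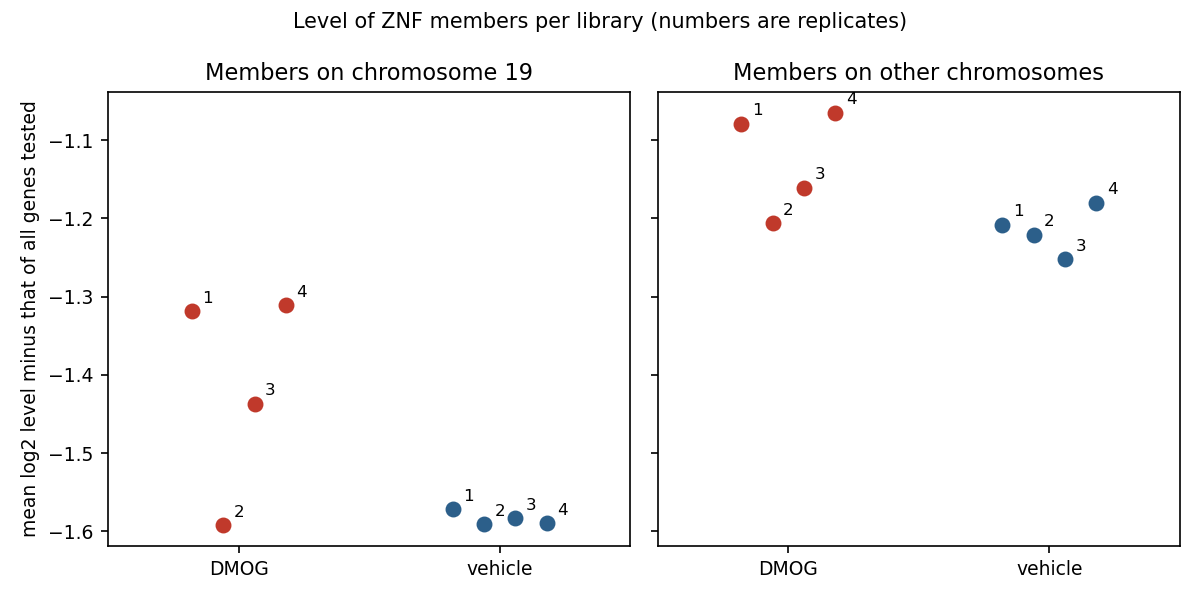
Mean log2 level of ZNF members minus the mean over all genes tested (y axis, log2 units), 1 point per library, with DMOG at the left of vehicle and replicate numbers beside the points. On chromosome 19, DMOG replicates 1, 3 and 4 lie between -1.44 and -1.31 and DMOG replicate 2 at -1.59, with the vehicle libraries between -1.59 and -1.57.

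The chromosome 19 members fall into clusters, taken here as runs of listed ZNF genes with gaps of at most 500 kb (hg19 positions from the authors' table). The cluster at chr19:19779663-24312769, a block of KRAB zinc finger genes beside the centromere that expanded in primates, lists 36 ZNF genes, of which 8 were members. All 8 members had a log2 fold change above 0, with a median of 0.44, also with RPKM as deposited (median 0.22), and 4 of them rose: ZNF430, ZNF431, ZNF91 and ZNF254. The cluster at chr19:11594242-12740676 had a median of 0.41 over 10 members, 3 of them called higher. The cluster at chr19:52074531-54083523 had a median of 0.27 over 26 members, with 6 higher, and that at chr19:57702868-58992597 had a median of 0.24 over 28 members, with 4 higher. By contrast, the cluster at chr19:44037340-45004575 had a median of 0.07 over 11 members, none called higher and 1 lower. With RPKM as deposited these last 4 medians were 0.21, 0.04, 0.00 and -0.12. The counts called higher after scaling are to be read beside 13.7% of all genes tested and 17.2% of other genes tested on chromosome 19. No cluster was tested against these shares. Neighbouring members share sequence, and the sources used here do not say how reads with several matches were counted, so levels of close relatives are uncertain.

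**Figure D3:**
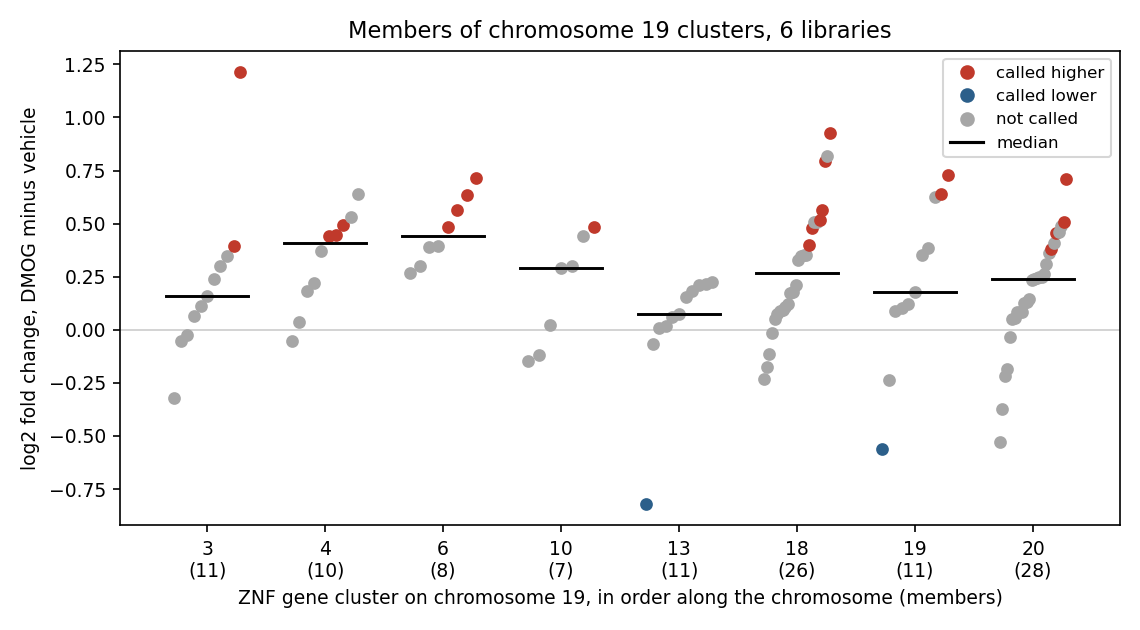
Log2 fold change (y axis, DMOG minus vehicle, 6 libraries) of each member in the chromosome 19 clusters with at least 7 members, in chromosome order, with the number of members in brackets and the median as a black bar. Cluster 6, the one beside the centromere, has all 8 members above 0, and cluster 13 is centred near 0.07.

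In the centromere-side cluster, ZNF431, a KRAB zinc finger gene, had 7.28, 8.89 and 7.33 RPKM in DMOG replicates 1, 3 and 4 and 4.92 in DMOG replicate 2, against 5.02, 4.25, 5.74 and 5.55 RPKM in vehicle replicates 1 to 4. Its DMOG replicates 1, 3 and 4 lay above all vehicle libraries and DMOG replicate 2 lay among them (log2 fold change 0.71 ± 0.12 SE in the 6 libraries, limma adjusted p = 0.00836). ZNF91 silences SVA retrotransposons in human cells and has 31 fingers of the pattern searched. ZNF91 had 3.94, 4.19 and 3.66 RPKM in DMOG replicates 1, 3 and 4 and 2.23 in DMOG replicate 2. In vehicle replicates 1 to 4 it had 2.58, 2.16, 2.89 and 2.70 RPKM. The same 3 DMOG libraries were again the highest (0.63 ± 0.11, adjusted p = 0.00905). ZNF430 and ZNF254 changed by 0.57 and 0.48 (adjusted p = 0.0125 and 0.0388), and the other 4 members, ZNF675, ZNF101, ZNF506 and ZNF253, stood between 0.27 and 0.40 without a call. As deposited, ZNF431 and ZNF91 kept their calls and ZNF430 and ZNF254 did not.

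The starts of the 4 called genes of this cluster resemble each other, which the following sequences show beside 2 members from elsewhere, ZNF426 (the largest increase on chromosome 19) and ZNF598 (the largest decrease of all). They are the 250 bases before each start in RefSeq (GRCh38.p14), 5′ to 3′ on the gene's strand, with the HIF core motif (ACGTG or GCGTG, on either strand) in capitals.
ZNF430: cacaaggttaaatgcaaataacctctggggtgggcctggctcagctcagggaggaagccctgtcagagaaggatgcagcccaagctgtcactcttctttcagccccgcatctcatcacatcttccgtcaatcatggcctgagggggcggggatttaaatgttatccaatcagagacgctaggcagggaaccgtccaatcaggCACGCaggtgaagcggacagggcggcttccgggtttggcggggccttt
ZNF431: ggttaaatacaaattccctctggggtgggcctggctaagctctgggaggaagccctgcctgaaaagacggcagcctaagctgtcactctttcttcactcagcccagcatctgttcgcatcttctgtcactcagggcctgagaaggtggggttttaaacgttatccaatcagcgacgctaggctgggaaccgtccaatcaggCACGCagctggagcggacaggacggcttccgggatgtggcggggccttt
ZNF91: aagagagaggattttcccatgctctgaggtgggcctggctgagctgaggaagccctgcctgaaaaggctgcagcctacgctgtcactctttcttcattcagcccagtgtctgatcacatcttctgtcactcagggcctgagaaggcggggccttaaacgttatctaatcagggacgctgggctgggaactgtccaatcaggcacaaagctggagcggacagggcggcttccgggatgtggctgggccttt
ZNF254: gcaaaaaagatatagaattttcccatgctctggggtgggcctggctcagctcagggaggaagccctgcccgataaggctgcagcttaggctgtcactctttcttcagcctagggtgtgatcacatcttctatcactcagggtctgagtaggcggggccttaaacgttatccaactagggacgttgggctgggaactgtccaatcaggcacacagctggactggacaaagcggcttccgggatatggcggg
ZNF426: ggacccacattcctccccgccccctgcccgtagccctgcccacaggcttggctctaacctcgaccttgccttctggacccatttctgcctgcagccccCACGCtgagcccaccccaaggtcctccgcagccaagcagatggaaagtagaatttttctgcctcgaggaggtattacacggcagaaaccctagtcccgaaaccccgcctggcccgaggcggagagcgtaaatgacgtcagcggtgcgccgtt
ZNF598: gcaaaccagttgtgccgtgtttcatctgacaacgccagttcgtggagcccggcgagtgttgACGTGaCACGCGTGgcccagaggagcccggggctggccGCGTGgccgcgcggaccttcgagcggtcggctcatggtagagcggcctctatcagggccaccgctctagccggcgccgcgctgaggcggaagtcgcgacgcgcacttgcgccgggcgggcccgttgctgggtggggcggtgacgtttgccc
They lie at chr19:21020407-21020656 (plus strand), chr19:21141790-21142039 (plus), chr19:23395472-23395721 (minus), chr19:24086937-24087186 (plus), chr19:9538646-9538895 (minus) and chr16:2009822-2010071 (minus). Between the 4 cluster genes the aligned stretches were 76.0% to 84.3% identical over the 6 pairs, counting gaps as differences, and they share the run ggcttccggg close to the start. ZNF426 or ZNF598 against cluster genes gave 46.9% to 52.4%, and the 2 uncalled cluster members with a listed start gave 50.9% to 64.4% against the 4 called ones. The HIF core occurred once each in the windows of ZNF430, ZNF431 and ZNF426, 4 times in that of ZNF598, where a pair of matches overlaps, and not in those of ZNF91 and ZNF254.

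Promoters (250 bases before to 50 after the start) were listed for 249 members. The HIF core was present in 64.7% of these, beside 64.1% of genes tested and 48.4% of all 27305 promoters, a share close to that of other expressed genes. Among members, it was present in 19 of 39 promoters of those called higher (48.7%), in 5 of 8 of those called lower and in 67.8% of those not called. A ZNF143 motif (ACTACA, any 2 bases, TCCC, either strand) was present in 30 of the 249 member promoters, beside 4.25% of genes tested and 1.96% of all promoters, and an ETS motif (CCGGAAGT) in 20.1%, beside 9.52% and 4.44%. The 2 motifs were present in 2.56% and 12.8% of the promoters of members called higher and in 14.4% and 20.8% of those of members not called, without a test of the difference. These are counts of letters, and no binding was measured.

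The 10 largest increases among called members came from several chromosomes and roles. ZNF395 on chromosome 8, a transcription factor known to be induced by hypoxia, had 34.1, 17.7 and 71.7 RPKM in DMOG replicates 1, 3 and 4 and 15.1 in DMOG replicate 2, against 14.0, 15.8, 12.7 and 13.1 RPKM in vehicle replicates 1 to 4. DMOG replicate 4 was far above the rest, and DMOG replicate 2 lay within the vehicle range (log2 fold change 1.63 ± 0.46 SE, limma adjusted p = 0.0387). ZNF365 on chromosome 10, whose product acts at centrosomes and in telomere stability and has no finger of the pattern searched, had 4.84, 2.75 and 9.45 RPKM in DMOG replicates 1, 3 and 4 and 1.62 in DMOG replicate 2, against 0.862, 1.70, 1.35 and 2.01 RPKM in vehicle libraries. Its order among DMOG libraries was that of ZNF395, with replicate 4 highest and replicate 2 among the vehicle values (1.59 ± 0.39, adjusted p = 0.0257).

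ZNF426, a KRAB zinc finger gene at chr19:9638681-9649303, had 17.4, 12.5 and 19.6 RPKM in DMOG replicates 1, 3 and 4 and 6.83 in DMOG replicate 2, against 7.88, 5.45, 7.33 and 8.94 RPKM in vehicle libraries. The 3 DMOG libraries stood clear of all others, and this was the increase with the lowest adjusted p among members (log2 fold change 1.21 ± 0.19, adjusted p = 0.00794). ZNF143, an activator of small nuclear RNA genes and of many housekeeping promoters, had 8.71, 7.66 and 10.6 RPKM in DMOG replicates 1, 3 and 4 and 5.67 in DMOG replicate 2, against 5.39, 3.13, 6.54 and 5.99 RPKM in vehicle libraries (0.78 ± 0.16, adjusted p = 0.0158). Here too DMOG replicate 2 lay within the vehicle range.

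The other increases of this size were in KRAB genes of chromosome 19 and in ZNF672 on chromosome 1. The latter has 13 fingers of the pattern searched and no KRAB-like stretch. ZNF672 had 19.2, 15.3 and 21.3 RPKM in DMOG replicates 1, 3 and 4 and 11.6 in DMOG replicate 2, against at most 12.5 RPKM in vehicle libraries (0.86 ± 0.16, adjusted p = 0.0109). ZNF841 and ZNF836, near neighbours in the cluster at chr19:52074531-54083523, averaged 11.5 ± 1.86 and 3.85 ± 0.0990 RPKM in DMOG replicates 1, 3 and 4, against 7.19 ± 2.85 and 2.29 ± 0.596 RPKM in vehicle replicates 1, 3 and 4 (SD, n = 3 each). As deposited the groups overlapped for ZNF841, with 9.41 RPKM in DMOG replicate 1 against 10.4 RPKM in vehicle replicate 3. The log2 fold changes of ZNF841 and ZNF836 were 0.92 (limma adjusted p = 0.0398) and 0.80 (adjusted p = 0.0136). ZNF71 and ZNF264 rose by 0.73 and 0.71 (adjusted p = 0.0279 and 0.0157). With RPKM as deposited, ZNF841 and ZNF71 lost their calls (adjusted p = 0.0709 and 0.0608) and the other 8 of the 10 kept them.

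Members that fell were fewer, lay mostly off chromosome 19 and had few fingers. ZNF598, an E3 ubiquitin ligase that marks collided ribosomes, had 14.4, 22.0 and 14.4 RPKM in DMOG replicates 1, 3 and 4 and 39.2 in DMOG replicate 2, against 42.0, 39.7, 37.8 and 44.1 RPKM in vehicle libraries. The 3 DMOG libraries were the lowest and DMOG replicate 2 stood inside the vehicle range (log2 fold change -0.97 ± 0.16 SE, limma adjusted p = 0.00836). ZNF593, a factor in maturation of the large ribosomal subunit, had 11.3, 13.6 and 8.33 RPKM in DMOG replicates 1, 3 and 4 and 20.5 in DMOG replicate 2, against 22.2, 22.3, 22.3 and 24.0 RPKM in vehicle libraries. All 4 DMOG libraries of ZNF593 lay below all 4 vehicle libraries, replicate 2 by the least (-0.72 ± 0.15, adjusted p = 0.0142).

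ZNF330, a nucleolar protein, had 6.04, 7.12 and 3.91 RPKM in DMOG replicates 1, 3 and 4 and 11.1 in DMOG replicate 2, against 10.5 to 12.9 RPKM in vehicle libraries (-0.67 ± 0.17, adjusted p = 0.0281). ZNF428, ZNF787 and ZNF511 fell by 0.82, 0.56 and 0.34 on the log2 scale (adjusted p = 0.0192, 0.0130 and 0.0420). ZNF428 and ZNF511 each overlap a listed gene on the other strand (SRRM5 and TUBGCP2), so reads of the pair cannot be told apart where strand was not recorded. The same limit holds for ZNF252P (TMED10P1 and ZNF252P-AS1), ZNF365 (LOC283045), ZNF350 (HCCAT3), ZNF217 (LOC101927770) and ZNF385A (LOC102724050), and 14 of the 51 called members overlap a listed gene. The KRAB genes ZNF589 and ZNF215 fell by 0.58 and 0.49 (adjusted p = 0.0125 and 0.0487). The last of the 9, ZNF252P on chromosome 8, is named as a pseudogene and fell by 0.68 (adjusted p = 0.0174). Each of the 9 kept its direction and call with RPKM as deposited.

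**Figure D4:**
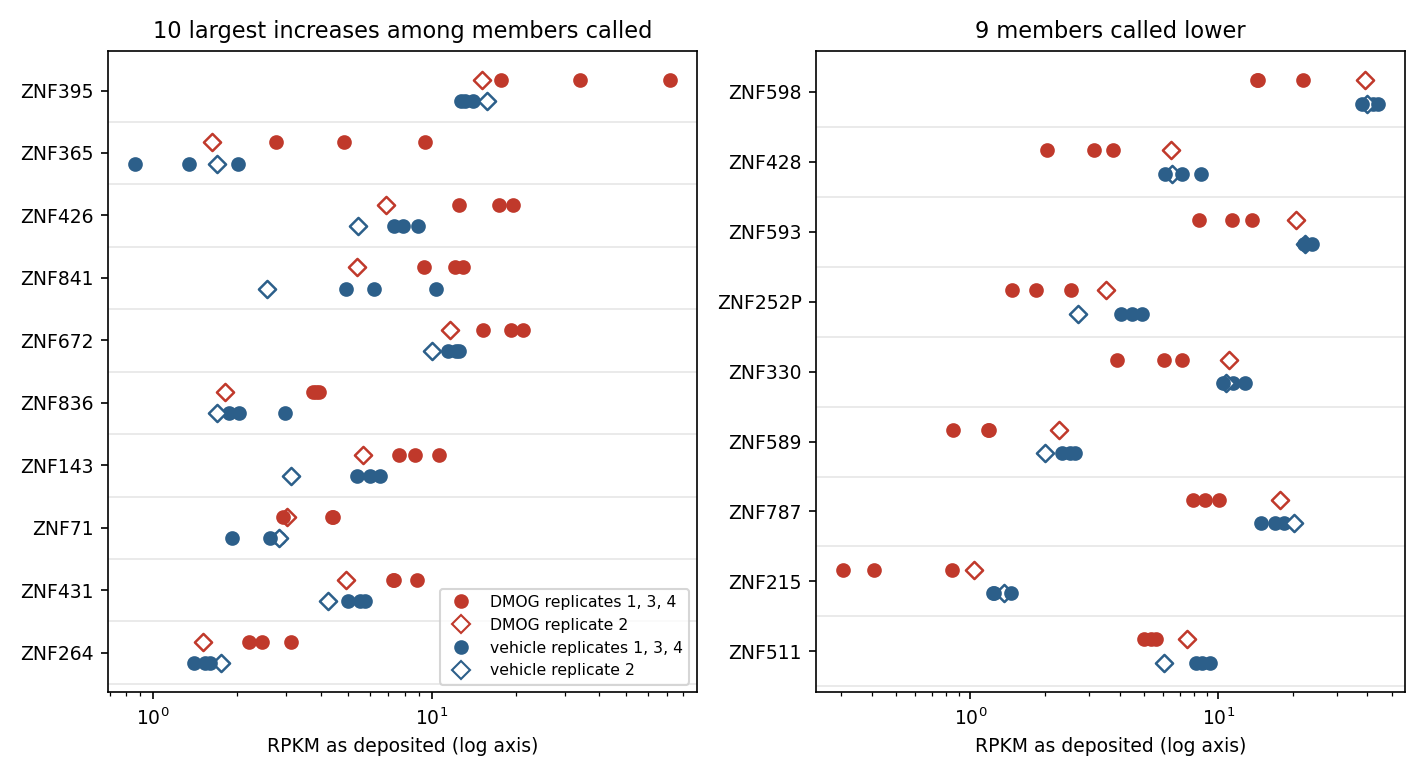
RPKM as deposited (x axis, log scale) in each library for the 10 members with the largest increase and the 9 members called lower, with DMOG points above vehicle points and replicate 2 as open diamonds. DMOG replicates 1, 3 and 4 are apart from vehicle replicates 1, 3 and 4 for 18 of the 19 genes, ZNF841 being the exception, and DMOG replicate 2 lies within the range of the vehicle libraries for 16.

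The most abundant members included proteins that are not typical DNA-binding repressors. ZNF185, an actin-associated LIM domain protein of differentiating epithelia on the X chromosome, had 253, 245 and 221 RPKM in DMOG replicates 1, 3 and 4 and 207 in DMOG replicate 2, against 192, 218, 211 and 186 RPKM in vehicle libraries. The groups of 3 did not overlap, although vehicle replicate 2 came close to DMOG replicate 4 (log2 fold change 0.59 ± 0.11, limma adjusted p = 0.0125; as deposited, adjusted p = 0.0715). ZNF207, which loads the checkpoint protein BUB3 onto kinetochores, had 73.4, 69.8 and 67.3 RPKM in DMOG replicates 1, 3 and 4 and 74.1 in DMOG replicate 2, against 77.1, 93.4, 79.0 and 77.4 RPKM in vehicle libraries. Its change was not called and took opposite signs under the 2 scalings, 0.15 scaled and -0.15 as deposited.

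ZNF385A, a cofactor of p53, had 73.8, 52.7 and 121 RPKM in DMOG replicates 1, 3 and 4 and 62.9 in DMOG replicate 2, against 53.9, 47.1, 46.0 and 57.7 RPKM in vehicle libraries. Its change of 0.86 ± 0.31 was not called (adjusted p = 0.0706) and was called with the replicate block (adjusted p = 0.0276). ZNF770 averaged 29.1 ± 4.47 RPKM in DMOG replicates 1, 3 and 4 and 37.4 ± 6.69 RPKM in vehicle replicates 1, 3 and 4 (SD, n = 3 each), with a log2 fold change of -0.05 after scaling and -0.35 as deposited, neither called. ZNF598 completed the 5 most abundant.

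Members with a known role were grouped into lists, to be read beside 13.7% of genes tested called higher and 16.1% called lower. With so few members a list, the counts set no list apart. Of 7 in RNA handling and translation, ZNF598 and ZNF593 fell and none rose, and the other 5 (ZNF622, ZNF326, ZNF346, ZNF638 and ZNF106) had changes between -0.09 and 0.20 without a call. Of 16 tested transcription factors and cofactors without KRAB, 4 rose and none fell. Beside ZNF395 and ZNF143 these were ZNF703 and ZNF217, both growth-promoting factors in breast cancer, with changes of 0.54 and 0.44 (adjusted p = 0.0491 and 0.0339). Of 6 tested KRAB proteins with known targets, 2 rose and none fell. ZNF91 was one, and ZNF350, a partner of BRCA1 in repressing GADD45A, changed by 0.40 (adjusted p = 0.0474, and 0.0566 with the replicate block). As deposited, ZNF703, ZNF217 and ZNF350 were not called.

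Grouped by protein, members with many fingers had more calls upward than downward after scaling. With RPKM as deposited, those with 10 to 14 fingers had 7 higher and 7 lower (7.37% each), beside 6.13% and 34.5% of genes tested. A KRAB-like stretch was found in 162 of 287 members with a GENCODE 29 reading frame, in 97 of 121 on chromosome 19 and in 65 of 166 elsewhere. Of the 162, 25 rose and 2 fell, with a median log2 fold change of 0.18, beside 17 and 6 of the 125 without, with a median of 0.12. The shares called higher, 15.4% and 13.6%, were near the 13.7% of genes tested, and those called lower, 1.23% and 4.80%, stood beside 16.1%. As deposited the counts were 6 and 15 with the stretch and 6 and 19 without, beside 6.13% and 34.5% of genes tested. On chromosome 19 the KRAB-like members had 18 higher (18.6%) and 0 lower (median 0.22). Elsewhere they had 7 higher (10.8%) and 2 lower (median 0.10). Members without the stretch had 5 higher (20.8%) and 2 lower of 24 on chromosome 19 (median 0.15). Elsewhere they had 12 higher (11.9%) and 4 lower of 101 (median 0.12). Of other genes tested on chromosome 19, 17.2% were called higher. As deposited, KRAB-like members on chromosome 19 had 5 higher and 5 lower. No difference between these groups was tested. Of the 51 members with 0 to 4 fingers, 5 rose and 7 fell. Of the 84 with 5 to 9 fingers, 11 rose and 1 fell, of the 95 with 10 to 14, 17 rose and 0 fell, and of the 57 with 15 or more, 9 rose and 0 fell. The shares called higher ran between 9.80% and 17.9% over these 4 groups, beside 13.7% of genes tested, and those called lower between 0% and 13.7%, beside 16.1%. The 19 members with a SCAN-like stretch, a dimerization domain, had 0 higher and 1 lower.

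Level moved with these groupings, since KRAB-like members had a median of 2.03 RPKM and those without 4.80 RPKM. At 1 to 3 RPKM, 17 of 154 members were called higher and 1 lower (0.649%), beside 8.88% and 14.7% of genes tested at that level. At 3 to 10 RPKM the shares were 20.2% and 4.04% of members, beside 11.8% and 16.8% of genes tested. At 10 RPKM or more they were 14.7% and 8.82% of 34 members, beside 17.5% and 16.1% of genes tested. The share called lower was thus below that of genes tested in each band. Chromosome 19 and other members had median log2 fold changes of 0.21 and 0.08 at 1 to 3 RPKM and 0.35 and 0.11 at 3 to 10 RPKM. At 10 RPKM or more the medians were 0.03 over 10 members and 0.11 over 24. The higher median on chromosome 19 was thus not present in the top band, which held few members.

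**Figure D5:**
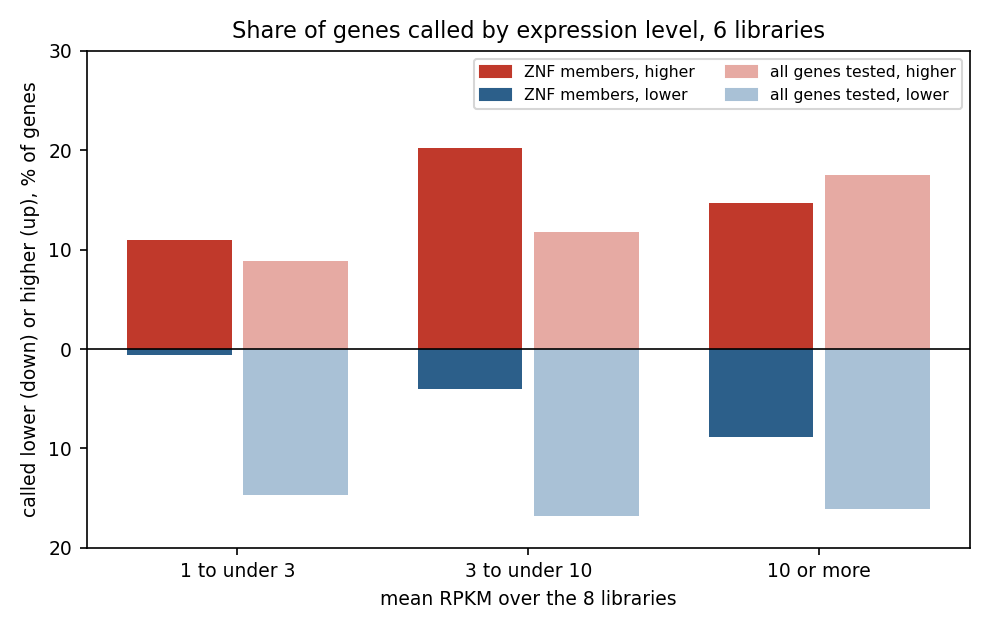
Share of genes (y axis, percent) called higher (bars upward) or lower (bars downward) in the 6 libraries by mean RPKM (x axis), with ZNF members in dark colours at the left and all genes tested in pale colours at the right of each pair. The dark downward bars are 0.649%, 4.04% and 8.82%, shorter than the pale ones at each level.

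Genes of related families were read beside 13.7% of genes tested called higher and 16.1% called lower. None of 11 ZSCAN and 4 ZKSCAN genes tested was called, with median log2 fold changes of 0.13 and 0.24. Of 31 ZBTB genes, whose proteins join a BTB domain to zinc fingers, 3 rose (ZBTB17, ZBTB43 and ZBTB4, by 0.96, 0.71 and 0.52) and 0 fell, and 27 lay above 0 with a median of 0.14. Of 12 ZFP genes, ZFP28 rose by 0.48 and ZFP69B and ZFP41 changed by -1.31 and -0.66, and the median was 0.01. Of 13 KLF genes, KLF6 and KLF8 rose by 0.39 and 0.49, and 11 lay above 0 with a median of 0.35, beside 0.15 for ZNF members. As deposited, 1 ZBTB gene was called higher and 2 lower, 3 ZFP genes were called lower, and no KLF gene was called. The medians as deposited were -0.07 for ZSCAN, 0.06 for ZKSCAN, -0.08 for ZBTB, -0.18 for ZFP and 0.05 for KLF genes.

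KRAB proteins act through corepressors and heterochromatin proteins. Of 23 corepressor and heterochromatin genes, CBX1, which binds methylated H3 lysine 9, and HDAC1, a histone deacetylase, rose by 0.81 and 0.37 (adjusted p = 0.0346 and 0.0342), and 0 fell. These 2 are 8.70% of the list, beside 13.7% of genes tested. As deposited, neither rose and 7 of the 23 were called lower (30.4%), near the 34.5% of genes tested. TRIM28 had 62.8, 64.4 and 57.6 RPKM in DMOG replicates 1, 3 and 4 and 81.0 in DMOG replicate 2, against 90.1, 72.7, 84.5 and 90.0 RPKM in vehicle libraries. Its 3 DMOG libraries were the lowest, and its scaled change of -0.21 was not called (adjusted p = 0.11), while it was as deposited (-0.51, adjusted p = 0.00832). Among 8 tested demethylases of H3 lysine 9, which like the prolyl hydroxylases depend on 2-oxoglutarate, KDM4B rose by 1.04 (adjusted p = 0.0228). KDM3A had a change of 1.46 that was not called (adjusted p = 0.0611). The 1 called higher is 12.5% of this list, beside 13.7% of genes tested, and 0 fell. As deposited, KDM4B kept its call (0.76, limma adjusted p = 0.0322) and KDM4A was called lower (-0.56, limma adjusted p = 0.0265).

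In the authors' deposited table, which rests on the same 6 libraries, all 293 members were listed. It called 70 members higher (23.9%, beside 18.8% of its 13424 genes) and 15 lower (5.12%, beside 17.6%), with a median log2 ratio of 0.22 over members and 0.02 over all its genes. The authors' deposited table gave a median log2 ratio of 0.34 for chromosome 19 members, with 38 called higher and 5 lower, and 0.14 for the others, with 32 and 10. All 42 members called higher here and 8 of the 9 called lower were called in the same direction in the authors' deposited table.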

How the data were processed

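The authors deposited RPKM values in a table named as raw counts; its chromosome names are those of hg19. The submitters' processing notes name HTSeq 0.6.1, TopHat2 2.0.13 and Bowtie2 2.2.3.0 among the tools, without roles, and both hg19 and hg38. Strand handling is not given in these sources. The RPKM came from whole reads: 100% of values above 0 were whole within 0.01 reads. The second table, per the file headers, holds the authors' normalized group means (signal), the fold change or ratio B over A with its log2, and raw and adjusted p-values. Its means were matched to libraries by a non-negative fit with a relative misfit of 6.84e-11.

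The planned test for any unit other than counts was limma-trend (limma 3.58.1, R 4.3.3, robust) on log2(RPKM / median-ratio factor + 1), two-sided, Benjamini-Hochberg over the 11122 genes at 1 RPKM or more in at least 4 libraries, with a threshold of 0.05. Tested on simulated data for the 6-library comparison (11041 genes), it recovered 81% of genes changed by 1 on the log2 scale and 100% of those changed by 2. For 8 simulated libraries it recovered 98% and 99%, whereas the real 8 libraries gave 0 genes called. The simulation gave all genes the same dispersion and held no outlying library, so these shares are not the power in these data. Alternatives were RPKM as deposited, upper-quartile factors, a pseudocount of 0.1, no filter, a filter on mean RPKM, a replicate block, limma-voom on recovered reads and leaving out each library.

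The members and the gene lists were chosen with earlier results of these data known, so counts and medians over them are descriptions without tests. Members named are the 10 largest increases and 10 largest decreases among those called in 6 libraries (9 decreases were called), the 5 highest in mean RPKM, called members of the role lists, and 3 each side of the level limit. ZNF430, ZNF254 and the other members of their cluster, and uncalled list genes such as KDM3A and TRIM28, were named after their values were seen. The same holds for grouping by protein, done on GENCODE 29 reading frames: fingers were counted by the pattern C, 2 to 4 residues, C, 12 residues, H, 3 to 5 residues, H, and KRAB-like or SCAN-like stretches are those scoring at least 0.2 of the self score against ZNF10 or ZNF24 (BLOSUM62, Biopython 1.88). Replicate numbers came from the titles. In the 6 libraries, deviations from group means correlated at 0.465, 0.395 and 0.34 for same-numbered libraries and lower for every other pair. Over 8 libraries the same-numbered correlations were 0.528 and 0.237 for replicates 3 and 4, but 0.0713 and -0.0204 for replicates 1 and 2. The titles do not say whether cultures were paired, and the main fits use no block.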

Additional observations from a re-analysis of the deposited data

Results flagged for a closer look

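Groups of 4 libraries were examined for the named members and for the mean log2 levels of chromosome 19 and other members. Among these 58 groups, 3 held a library far from the other 3 by Dixon's criterion. Chance meets it in about 1 in 20 groups. Most named members were chosen by calls that left out replicate 2, so that rate need not hold here. ZNF836 had 1.81 RPKM in DMOG replicate 2, below the other DMOG libraries (3.75 to 3.95 RPKM). ZNF593 had 24.0 RPKM in vehicle replicate 4, above the other vehicle libraries. ZNF207 had 93.4 RPKM in vehicle replicate 2, above the other vehicle libraries (77.1 to 79.0 RPKM).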

How the results depend on the processing

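With RPKM as deposited, the 6-library calls were 12 higher and 36 lower, the median member reversed to -0.0705 (-0.0348 over 8 libraries), and ZNF207 reversed to -0.15 (-0.19 over 8). Without the filter, 19 members were higher. The share of all genes called in that fit is not given, so this count does not set members apart. The replicate block gave 14 lower. In 8 libraries, where not all same-numbered libraries resembled each other, it called 0 each way. A pseudocount of 0.1 moved the 6-library median to 0.20 (0.20 above the genes tested) and the gap between chromosome 19 and other members to 0.18 (0.16 over 8 libraries). Leaving out 1 library gave 2 to 68 higher and 1 to 20 lower in 6 libraries, and 0 to 52 higher and 0 to 16 lower in 8, every call in 8 coming without DMOG replicate 2. Leaving out 1 library took ZNF770 between -0.168 and 0.0612 in 6 libraries and ZNF207 between -0.032 and 0.113 in 8, so neither uncalled change has a fixed sign. The causes were not tested. Of the 24 named members called in 6 libraries, 21 lost their call without vehicle replicate 1, 18 without vehicle replicate 4 and 17 without DMOG replicate 1. Upper-quartile factors, the filter on mean RPKM and limma-voom kept both counts within 1.5 times. With 3 libraries a group the calls rest on each library, and a member in 1 library rested on as few as 20 reads (median 338).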
